A study of Mus musculus with 24 samples.

Results

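Neuropeptide precursors are the genes of small secreted signalling peptides, and 10 of them were chosen by name: Adcyap1, Pdyn, Penk, Npy, Sst, Cck, Vip, Tac1, Tac2 and Crh. They are 10 of the 47069 gene IDs in the count files, and every one passed the filter on low counts in the fits reported. Under a stricter filter, 1 CPM in 3 libraries, Crh was not tested within either line. Messenger RNA of the hippocampus was sequenced from male mice aged 2 to 4 months, in 6 groups of 3 libraries, and each library held the pooled RNA of 3 mice. In the KO line, on a mixed F1 background of C57 and 129, the Kdm5c -/- (KO) mice lack the histone H3 lysine 4 demethylase Kdm5c from the germline on, and their comparison group is wild type (WT). Each genotype of that line was taken untreated or after novelty, which is 1 h alone in a box with tubing and toys. In the inducible line, on pure C57BL/6J, CaMKIIα-creERT2 and a floxed Kdm5c allele give the ifKO mice, whose deletion is driven in forebrain excitatory neurons of the adult; the untreated ifKO libraries were set beside those of untreated control mice. The sources used here do not say if Cre or tamoxifen was also given to those controls. The lines also differed in read length and flowcell, so levels are compared between groups of a line, and across lines only as a difference of effects.

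A neuropeptide is made as a longer precursor protein, cut by prohormone convertases in dense-core vesicles, and released to act on G protein-coupled receptors. Several precursor genes carry a cAMP response element (CRE) near their start and are textbook targets of neuronal activity through the factor CREB. In the hippocampus Pdyn marks dentate granule cells, while Sst, Npy, Vip and part of the Cck mRNA come from inhibitory interneurons. Penk, Tac1, Tac2, Crh and Adcyap1 are made by smaller populations. In RNA from whole hippocampus, fewer cells of a type and less RNA per cell cannot be told apart.

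The start regions of these genes are shown because the CRE links several of them to activity. RefSeq's table (GRCm38.p6) held 8 of the 10 members, without Penk and Crh. The 250 bases before each RefSeq start were searched on both strands for the full CRE TGACGTCA, for its core TGACG, which also lies within the full site and reads CGTCA on the opposite strand, and for the AP-1 site TGACTCA, which reads TGAGTCA on the opposite strand. Capitals mark a match. For the members whose mRNA differed below, the sequences are given whole, 5′ to 3′ on the gene's strand.
Adcyap1, chr17:93198767-93199016, plus strand: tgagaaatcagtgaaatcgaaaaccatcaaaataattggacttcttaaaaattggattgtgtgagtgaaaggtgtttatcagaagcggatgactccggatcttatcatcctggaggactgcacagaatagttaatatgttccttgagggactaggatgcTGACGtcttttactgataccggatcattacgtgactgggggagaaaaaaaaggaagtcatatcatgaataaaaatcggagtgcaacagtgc
Pdyn, chr2:129699939-129700188, minus strand: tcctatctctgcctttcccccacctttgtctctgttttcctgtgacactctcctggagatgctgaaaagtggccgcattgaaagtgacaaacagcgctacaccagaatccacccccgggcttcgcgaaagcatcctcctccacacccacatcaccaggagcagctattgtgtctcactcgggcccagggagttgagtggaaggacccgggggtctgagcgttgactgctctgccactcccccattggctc
Adcyap1 held the core at -91 from this start and no full CRE. Its other RefSeq start, chr17:93199168, lies downstream. The window of that start (chr17:93198918-93199167) held the same core, farther from the start, and no full CRE. The Pdyn window held neither, nor did that of its other RefSeq start.

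The members below hold a CRE or its core, and the short stretches around each site allow them to be compared with the site of Adcyap1.
Sst, chr16:23890875-23890902, minus strand, full site at -48: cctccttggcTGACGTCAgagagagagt
Vip, chr10:5639129-5639153, plus strand, core at -79: atcactactgTGACGtctttcgggg
Cck, chr9:121495727-121495751, minus strand, core at -47: tgctggactgCGTCAgcactgggta
Tac1, chr6:7555008-7555032, plus strand, core at -43: tctacaggctCGTCAcgcctgagat
Tac1, chr6:7554854-7554878, plus strand, another core at -197: cctaaaattgCGTCAtttcgaacac
The full site was found in 1 member, Sst, and the core in 5 members, Adcyap1, Sst, Cck, Vip and Tac1. Among all 32851 windows of that length, 1.55% held the full site and 17.8% the core. No member held the AP-1 site, which 4.46% of windows did. A match describes these letters and does not show that a factor binds there.

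Libraries held 16.0 to 45.6 M counts in genes. Levels are in CPM, counts scaled to a common library size after TMM scaling. Kdm5c lay at 74.2 to 76.4 CPM in untreated WT and 75.4 to 76.3 CPM in untreated KO, and at 62.1 to 67.5 CPM in inducible controls and 63.6 to 69.0 CPM in ifKO, so counts over the whole gene do not check the deletion in either line. With novelty Kdm5c rose in WT, to 90.2 to 100.04 CPM (log2 difference 0.34 ± 0.06, adjusted p = 0.0388), and it was at 77.8 to 86.5 CPM in KO novelty. Among the 12 libraries of the KO line, KO novelty library 2 was the highest for 6 members and WT novelty library 1 for the other 4. These are named below as the 2 novelty libraries that stand apart, and member results that rest on them are given without them too. That ranking uses the members' own values, so fits without these libraries are no independent check on the members. Markers of dentate granule cells (10 genes) and inhibitory neurons (14 genes) were present in every library. Summed choroid plexus markers were at 644 CPM in KO untreated library 2 and 413 CPM in inducible control library 1, against 37.3 to 83.3 CPM elsewhere.

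**Figure D1:**
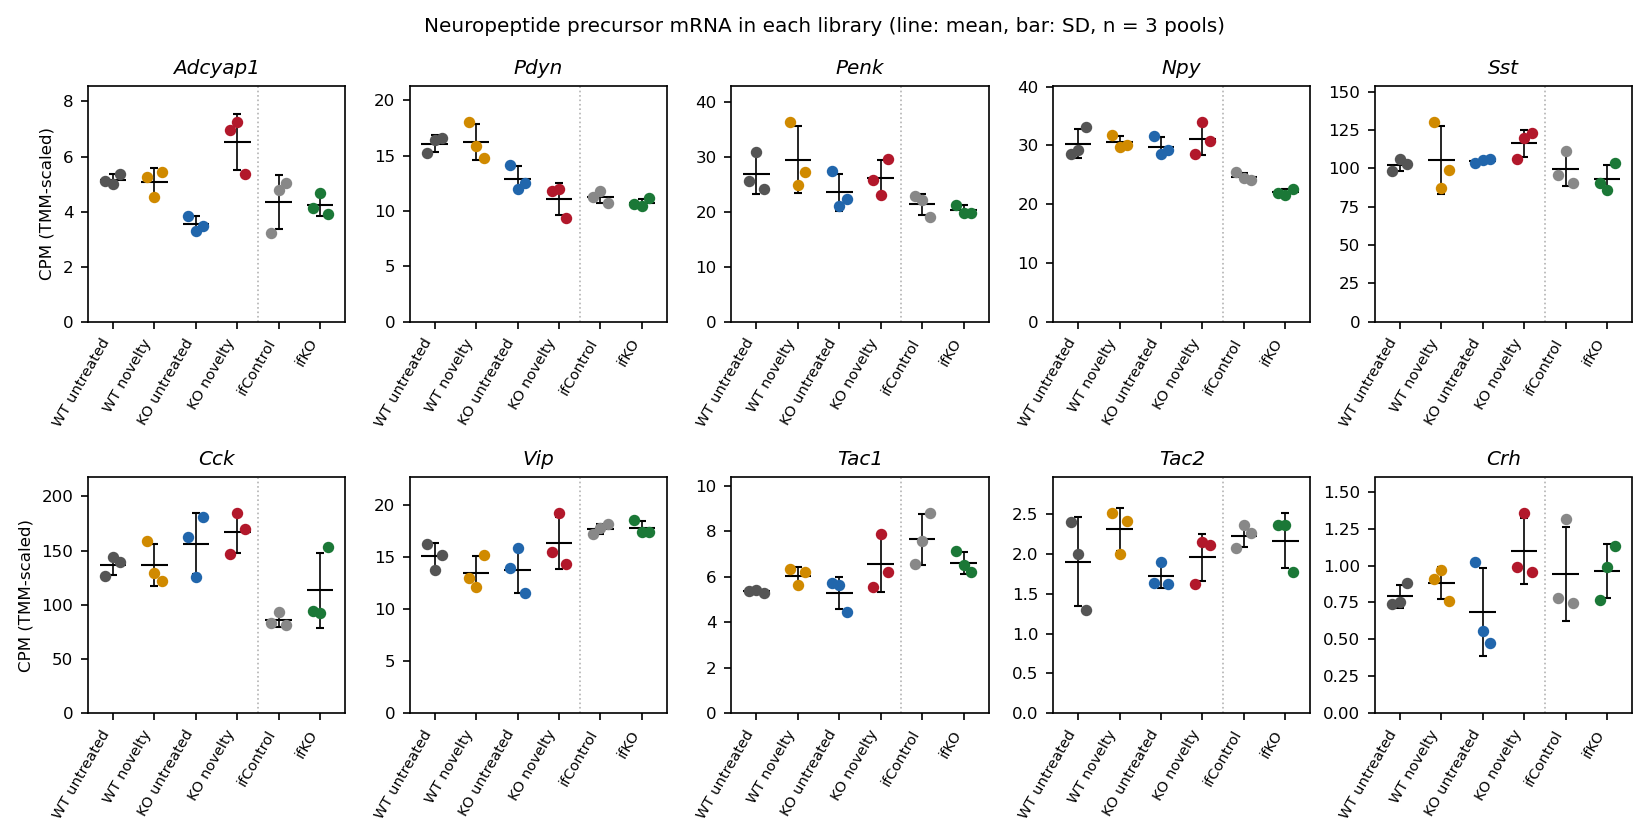
CPM of each precursor on a linear axis from 0, with 1 point per library, the group mean as a line and the SD as a bar (n = 3 pools). The 3 KO novelty libraries of Adcyap1 lie above the 3 KO untreated ones, and all 6 KO libraries of Pdyn lie below all 6 WT libraries.

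Adcyap1 encodes PACAP, a peptide of the secretin family that raises cAMP through its receptor Adcyap1r1. In KO its mRNA rose 1.83-fold with novelty, and in WT no novelty difference exceeded the spread of the libraries. Untreated WT libraries 1, 2 and 3 had 5.12, 4.98 and 5.38 CPM, and WT novelty libraries had 5.27, 4.52 and 5.45 CPM. These groups overlapped. Untreated KO libraries had 3.85, 3.28 and 3.48 CPM, and KO novelty libraries had 6.98, 7.26 and 5.37 CPM. Every KO novelty library exceeded every untreated KO library, and the untreated KO libraries were the lowest of the 12. The share of all genes whose libraries separate in this way was not counted. Separation of libraries is therefore given, here and throughout, as a description. The counts behind these values are small, 71 to 223 reads per library over all 18.

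The novelty comparison within KO gave a log2 difference of 0.87 ± 0.14 (SE, 95% interval 0.58 to 1.16, 1.83-fold) with an adjusted p of 0.0329 in edgeR's quasi-likelihood test over all genes. In that comparison 0.110% of 16392 genes passed, and Adcyap1 was the only member among them, with the ninth-smallest p. Within WT the difference was -0.03 ± 0.14 (interval -0.32 to 0.26, adjusted p = 0.974), and 0 of 10 members passed where 0.384% of all genes did. The call in KO was lost when any library of either KO group but KO novelty library 3 was left out, with adjusted p of 0.0783 to 0.244, and the log2 difference stayed between 0.79 and 0.98. It was also lost when only these 2 groups were fitted (adjusted p = 0.129). Without the 2 novelty libraries that stand apart the difference was 0.79 (adjusted p = 0.0411).

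Averaged over both genotypes, novelty raised Adcyap1 by 0.42 ± 0.10 (adjusted p = 0.0495), the single member among the 1.35% of genes that passed. This value sits at the threshold, with an adjusted p of 0.0932 without both libraries that stand apart, 0.0519 with RLE size factors and 0.0336 to 0.147 with 1 library left out at a time. Untreated KO lay below untreated WT by a log2 difference of -0.53 ± 0.14, with no overlap of libraries and an adjusted p of 0.101. After novelty the KO libraries lay on the other side, at 0.36 ± 0.13 (adjusted p = 0.348), and the groups overlapped there.

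The test of whether novelty acted differently in both genotypes gave Adcyap1 the smallest p of all 16392 genes, for a difference of 0.90 ± 0.19 on the log2 scale (interval 0.49 to 1.31). It did not pass adjustment (adjusted p = 0.9999). edgeR's quasi-likelihood test called 0% of genes there, and DESeq2 called 0 too. In edgeR's test 563 genes had an unadjusted p under 0.05, which is less than a share of 0.05 of the 16392 genes. With both novelty libraries that stand apart left out, that test called 331 of 16556 genes and Adcyap1 had an adjusted p of 0.0540. That the response of Adcyap1 differed between WT and KO was therefore not shown at the threshold.

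Immediate early genes, the first transcripts that neuronal activity induces, were set beside Adcyap1 in each library. Of 19 such genes 10 passed as higher with novelty in WT, 4 in KO and 15 over both genotypes. The difference was positive for 19 of 19 in WT and 17 of 19 in KO, with medians of 1.00 and 0.56. None of them passed in the test of the difference between these novelty effects. Fosl2 and Fosb, subunits of AP-1, and Nptx2, a neuronal pentraxin, had the smallest adjusted p over both genotypes (1.50e-05, 0.000255 and 0.000255 by edgeR), with log2 differences of 0.91 ± 0.06, 1.77 ± 0.17 and 0.64 ± 0.06. Fosl2 had 60.2, 65.9 and 62.7 CPM in untreated WT against 125.6, 111.9 and 127.8 CPM in WT novelty, and 66.3, 52.3 and 57.8 CPM in untreated KO against 103.9, 110.6 and 109.0 CPM in KO novelty. The mean log2(CPM + 1) of the list was 4.36 to 5.11 in untreated WT, 4.91 to 5.48 in untreated KO, 5.86 to 5.99 in WT novelty and 5.84 to 5.90 in KO novelty. Adcyap1 was at 4.52 to 5.45 CPM in WT novelty and 5.37 to 7.26 CPM in KO novelty. Between untreated KO and WT, 18 of these 19 genes had a positive difference, with a median of 0.44 and none passing. Adcyap1 had a negative difference there. Markers of inhibitory neurons moved with Adcyap1 in KO: 14 of 14 had a positive novelty difference there, with a median of 0.16 and none passing, against 5 of 14 in WT. Their summed level was 1316 to 1418 CPM in untreated KO, and no marker of the list was at 0. KO novelty libraries 1, 2 and 3 had 1377, 1652 and 1445 CPM. Library 1 lay within the untreated range, and library 2, one of those that stand apart, was highest. Markers of thalamus and habenula, regions beside the hippocampus, moved with Adcyap1 too: 9 of 11 tested had a positive novelty difference in KO, with a median of 0.20 and none passing, against 5 of 11 in WT. Their summed level, over 12 genes with none at 0, was 160.4 to 168 CPM in untreated KO, below every other library of the KO line. It was 181 to 192 CPM in KO novelty, 178 to 199 CPM in untreated WT and 180.0 to 188 CPM in WT novelty. The inhibitory neuron list and the thalamus and habenula list share the gene Calb2. The part of these lists, or of the immediate early genes, in the Adcyap1 result was not tested.

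**Figure D2:**
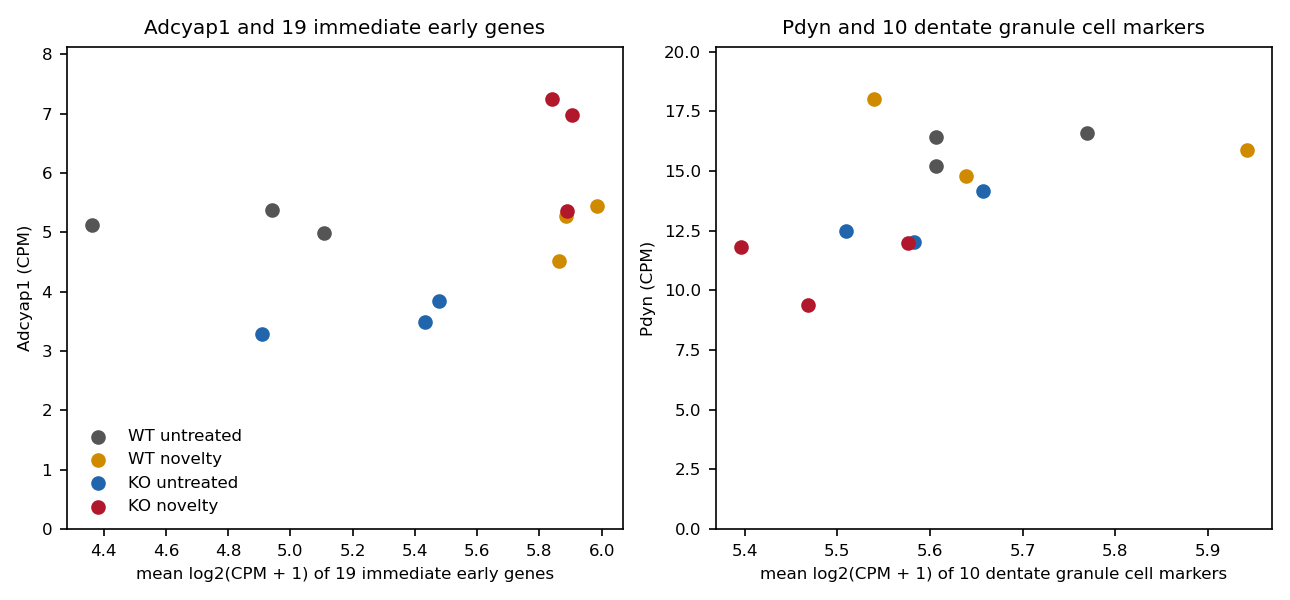
Left, Adcyap1 in CPM against the mean log2(CPM + 1) of 19 immediate early genes; right, Pdyn in CPM against that of 10 dentate granule cell markers, with 1 point per library of the KO line. WT novelty and KO novelty lie at a list level of 5.84 to 5.99 with overlapping Adcyap1 levels (4.52 to 5.45 and 5.37 to 7.26 CPM). KO libraries hold 14.2 CPM of Pdyn or less at dentate list levels of 5.40 to 5.66, partly below the WT levels of 5.54 to 5.94.

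In the inducible line Adcyap1 was at 3.21, 4.77 and 5.05 CPM in controls and 4.11, 4.68 and 3.92 CPM in ifKO. Control library 1 was the lowest and the groups overlapped. The difference was -0.04 ± 0.16 (interval -0.38 to 0.31, adjusted p = 0.983). The untreated KO effect minus the ifKO effect was -0.49 ± 0.22 and did not pass (adjusted p = 1.000). Adcyap1r1, its receptor, ranged from 249 to 302 CPM in the KO line and passed no test.

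Across the 12 libraries of the KO line, the 5 genes whose log2 CPM was most like that of Adcyap1, of 14434 genes at 1 CPM or more, were Ppp2ca, Ttc1, Anxa2, Lonp2 and Kcmf1, with Pearson's r of 0.93, 0.89, 0.85, 0.84 and 0.83. Ppp2ca encodes the catalytic subunit of protein phosphatase 2A. The libraries share groups and depth differences, and this is a description.

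Pdyn encodes prodynorphin, the precursor of dynorphins, which act on the kappa opioid receptor Oprk1. It fell in KO against WT by 0.44 on the log2 scale over both conditions, and every KO library lay below every WT library. Untreated WT libraries had 15.2, 16.4 and 16.6 CPM and untreated KO libraries 14.2, 12.02 and 12.48 CPM. WT novelty libraries had 18.04, 15.9 and 14.8 CPM and KO novelty libraries 11.84, 11.99 and 9.38 CPM. The groups did not overlap in either condition: the lowest WT library had 14.8 CPM and the highest KO library 14.2 CPM.

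After novelty the log2 difference between KO and WT was -0.56 ± 0.11 (interval -0.80 to -0.31, 0.680-fold, adjusted p = 0.0247), and Pdyn was the only member among the 1.34% of genes that passed. The call was lost without WT novelty library 1 (adjusted p = 0.0639), WT novelty library 2 (0.0602) or KO novelty library 3 (0.10), at differences of -0.48, -0.58 and -0.46, and when only these 2 groups were fitted (0.170). In untreated mice the difference was -0.31 ± 0.11 (interval -0.55 to -0.08) and did not pass (adjusted p = 0.352); 0 of 10 members passed there, against 1.24% of genes. Averaged over both conditions it was -0.44 ± 0.08 (interval -0.61 to -0.27, 0.739-fold, adjusted p = 0.00629), where 2.81% of genes passed and no other member did. That averaged call held in each of the 19 alternatives run, with adjusted p from 6.74e-05 to 0.0213.

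Novelty itself left Pdyn at -0.23 ± 0.11 in KO (adjusted p = 0.757), with all 3 KO novelty libraries below the untreated ones, and at 0.01 ± 0.11 in WT. The difference between these novelty effects was -0.24 ± 0.16 (adjusted p = 0.9999). Adcyap1 and Pdyn therefore stood at opposite ends of the 10 members in the novelty comparison within KO, at 0.87 and -0.23.

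**Figure D3:**
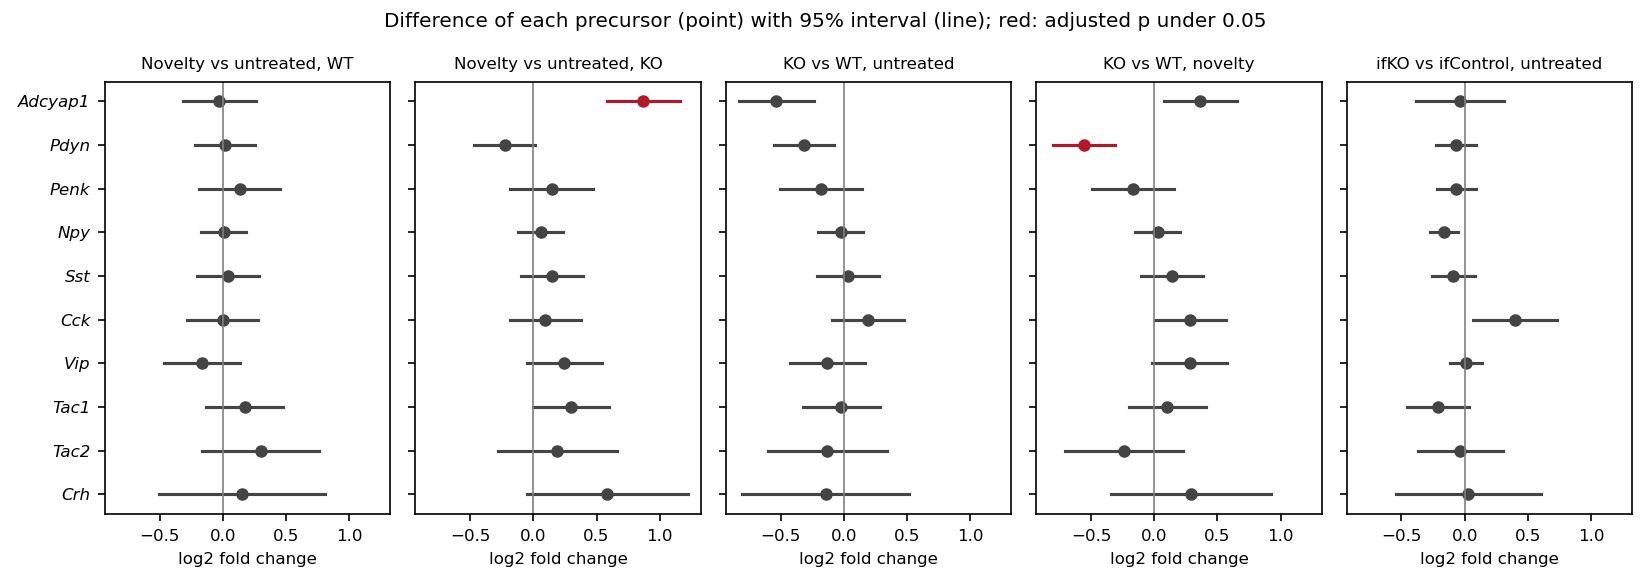
Log2 fold change of each precursor in 5 comparisons (point) with its 95% interval (line), in red where the adjusted p was under 0.05. Adcyap1 at 0.87 for novelty in KO and Pdyn at -0.56 for KO against WT after novelty are the marked ones.

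Dentate granule cells are the main source of Pdyn mRNA in the hippocampus, so their other markers were set beside it. Of the 10 markers, none of which is a member, 1 passed in the comparison averaged over both conditions: Tdo2, a tryptophan dioxygenase, fell by 0.70 on the log2 scale (SE 0.13, adjusted p = 0.00679). After novelty all 10 markers had a negative difference between KO and WT, with a median of -0.20 beside 0.00 over all genes tested, and none passed. In untreated mice 6 of 10 were negative, with a median of -0.04. Prox1, the factor that defines granule cells, had 115.9, 98.9 and 131 CPM in untreated WT and 112, 103.8 and 97.3 CPM in untreated KO. After novelty it had 92.3, 162 and 121 CPM in WT and 86.0, 113 and 89.2 CPM in KO.

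Log2 CPM of Pdyn minus the mean log2(CPM + 1) of these markers was -1.65 ± 0.08 (SD, n = 3) in untreated WT and -1.90 ± 0.09 in untreated KO, and these ranges did not overlap (-1.72 to -1.57 and -2.00 to -1.83). After novelty it was -1.69 ± 0.30 in WT and -2.02 ± 0.21 in KO, and the ranges overlapped (-1.95 to -1.37 and -2.24 to -1.83). The summed markers were 614 to 833 CPM in WT novelty and 570.4 to 687 CPM in KO novelty, with no marker at 0. Their part in the Pdyn difference was not tested.

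In the inducible line Pdyn was at 11.3, 11.8 and 10.8 CPM in controls and 10.6, 10.5 and 11.1 CPM in ifKO. The groups overlapped. The difference was -0.07 ± 0.07 (interval -0.23 to 0.09, adjusted p = 0.924). The untreated KO effect minus the ifKO effect was -0.24 ± 0.13 and did not pass (adjusted p = 1.000). Oprk1 was at 1.10 to 2.27 CPM in the KO line and passed no test.

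The genes whose log2 CPM was most like that of Pdyn over the same 12 libraries were Chst15, Vrk2, E130317F20Rik, Anxa6 and Gpc4, with Pearson's r of 0.92, 0.90, 0.90, 0.88 and 0.87. Chst15 is a sulfotransferase of chondroitin sulfate, and Gpc4 a heparan sulfate proteoglycan of the cell surface. As for Adcyap1, this is a description over libraries that share their groups.

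Penk, the precursor of enkephalins and the other opioid precursor among the members, passed no test. Untreated libraries had 25.6, 31.0 and 24.1 CPM in WT and 27.4, 21.0 and 22.4 CPM in KO. After novelty they had 36.4, 24.9 and 27.2 CPM in WT and 25.8, 23.1 and 29.6 CPM in KO. The groups overlapped in both conditions, and WT novelty library 1 stood highest. The averaged KO difference was -0.18 ± 0.11 (interval -0.41 to 0.05, adjusted p = 0.592). Penk of the inducible line spanned 19.1 to 22.8 CPM and the difference was -0.07 ± 0.07 (adjusted p = 0.924). An antisense gene, A830012C17Rik, overlaps Penk and had at most 4 counts in a library.

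Sst, which encodes somatostatin, an inhibitory peptide of dendrite-targeting interneurons, is the member found with the full CRE. Untreated libraries had 98.0, 106 and 103 CPM in WT and 104, 105 and 106 CPM in KO. After novelty they had 130.3, 87.5 and 98.8 CPM in WT and 106, 119.6 and 123.2 CPM in KO. All 3 KO novelty libraries exceeded the untreated KO libraries, by little: the difference was 0.15 ± 0.11 (interval -0.10 to 0.39, adjusted p = 0.904). In WT novelty spread the libraries in both directions, and the difference was 0.04 ± 0.11. KO against WT after novelty gave 0.14 ± 0.11 (adjusted p = 0.884), and 0.30 (adjusted p = 0.0456) without the 2 novelty libraries that stand apart, in a fit that called 705 of 16556 genes against 219 of 16392 with them. Somatostatin receptor 3, Sstr3, which sits on neuronal cilia, rose in untreated KO by 0.37 ± 0.08 (adjusted p = 0.0489) and in ifKO by 0.26 ± 0.05 (adjusted p = 0.0262). It had 36.5, 38.5 and 38.6 CPM in untreated WT against 49.5, 44.7 and 53.0 CPM in untreated KO, and 35.4, 36.2 and 36.9 CPM in inducible controls against 41.1, 45.3 and 43.8 CPM in ifKO. The groups did not overlap in either line.

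Npy, which encodes neuropeptide Y, an inhibitory peptide of several interneuron classes, varied least within groups, with a coefficient of variation of 2.3 to 8.8%. Untreated libraries had 28.5, 29.2 and 33.2 CPM in WT and 31.6, 28.6 and 29.2 CPM in KO, and after novelty 31.7, 29.8 and 30.1 CPM in WT and 28.6, 34.0 and 30.8 CPM in KO. These 4 groups overlapped. The averaged KO difference was 0.00 ± 0.06, with an interval of -0.13 to 0.13. In the inducible line the level was 25.4, 24.5 and 24.1 CPM in controls and 22.0, 21.5 and 22.6 CPM in ifKO. All ifKO libraries were lower, at a difference of -0.16 ± 0.05 that did not pass (adjusted p = 0.363). Npy2r, a presynaptic receptor of the peptide, fell in ifKO by 0.22 on the log2 scale (SE 0.04, adjusted p = 0.0407), with 74.5, 74.4 and 76.2 CPM in controls and 64.3, 67.2 and 61.2 CPM in ifKO.

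Vip encodes vasoactive intestinal peptide, a relative of PACAP made by interneurons that inhibit other interneurons. Untreated libraries had 16.3, 13.8 and 15.2 CPM in WT and 14.0, 15.9 and 11.5 CPM in KO. After novelty they had 13.0, 12.1 and 15.2 CPM in WT and 15.5, 19.2 and 14.3 CPM in KO. All groups overlapped. Its novelty differences had opposite signs in WT and KO, -0.17 ± 0.14 and 0.24 ± 0.14, and the test of their difference gave 0.41 ± 0.20 (adjusted p = 0.9999). All 6 libraries of the inducible line lay between 17.2 and 18.6 CPM, and the difference was 0.01 ± 0.06 (interval -0.12 to 0.14).

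Cck encodes cholecystokinin, made by basket cells and also by excitatory neurons. Untreated libraries had 126 to 145 CPM in WT and 126 to 181 CPM in KO, and after novelty 122 to 159 CPM in WT and 147 to 184 CPM in KO. The averaged KO difference was 0.24 ± 0.09 (interval 0.04 to 0.44) and did not pass (adjusted p = 0.279). Cck stood at 83.3, 93.1 and 81.7 CPM in inducible controls and at 94.4, 92.4 and 153 CPM in ifKO. A single ifKO library, number 3, stood above the rest. The difference was 0.40 ± 0.15 (adjusted p = 0.599) and fell to 0.12 ± 0.05 without that library.

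Tac1 encodes substance P and neurokinin A, and Tac2 encodes neurokinin B. Tac1 had 5.36, 5.43 and 5.29 CPM in untreated WT and 6.33, 5.62 and 6.21 CPM in WT novelty, so every WT novelty library was higher. That difference was 0.17 ± 0.14 (adjusted p = 0.717). In KO it had 5.75, 5.64 and 4.47 CPM untreated and 5.54, 7.87 and 6.22 CPM after novelty, and the groups overlapped (0.30 ± 0.14, adjusted p = 0.747). Averaged over genotypes the novelty difference was 0.23 ± 0.10, with an adjusted p of 0.326. Tac2 lay between 1.302 and 2.51 CPM in the KO line and 1.77 and 2.37 CPM in the inducible line, with 31 to 102 counts per library, and no comparison passed.

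Crh encodes corticotropin-releasing hormone, the peptide that starts the stress hormone cascade and that some hippocampal interneurons make. It was the lowest of the members, at 12 to 49 counts per library. Untreated libraries had 0.740 to 0.882 CPM in WT and 1.03, 0.555 and 0.474 CPM in KO, and KO novelty libraries had 0.990, 1.35 and 0.953 CPM. The novelty difference in KO was 0.58 ± 0.29 (interval -0.05 to 1.22, adjusted p = 0.764). At this depth a difference of the size seen for Adcyap1 lies within that interval.

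Levels can be compared between genes only per length, and CPM were divided by the kb of exon of each gene. In untreated WT the order was Sst at 142 CPM per kb, Cck at 105 CPM per kb, Npy at 53.5, Penk at 16.5, Pdyn at 5.57, Vip at 4.43, Tac1 at 1.58, Tac2 at 1.38, Adcyap1 at 1.37 and Crh at 0.60 CPM per kb. Libraries of neighbours in that order did not overlap, except those of Tac1 with Tac2 and of Tac2 with Adcyap1. In untreated KO the order was the same, and Pdyn overlapped Vip as Tac1 did Tac2. In KO novelty Vip (4.80 CPM per kb) and Pdyn (3.83 CPM per kb) had changed places without overlap, and Adcyap1 (1.73 CPM per kb) stood above Tac2 (1.42 CPM per kb), overlapping it. Vip also stood above Pdyn in both groups of the inducible line.

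**Figure D4:**
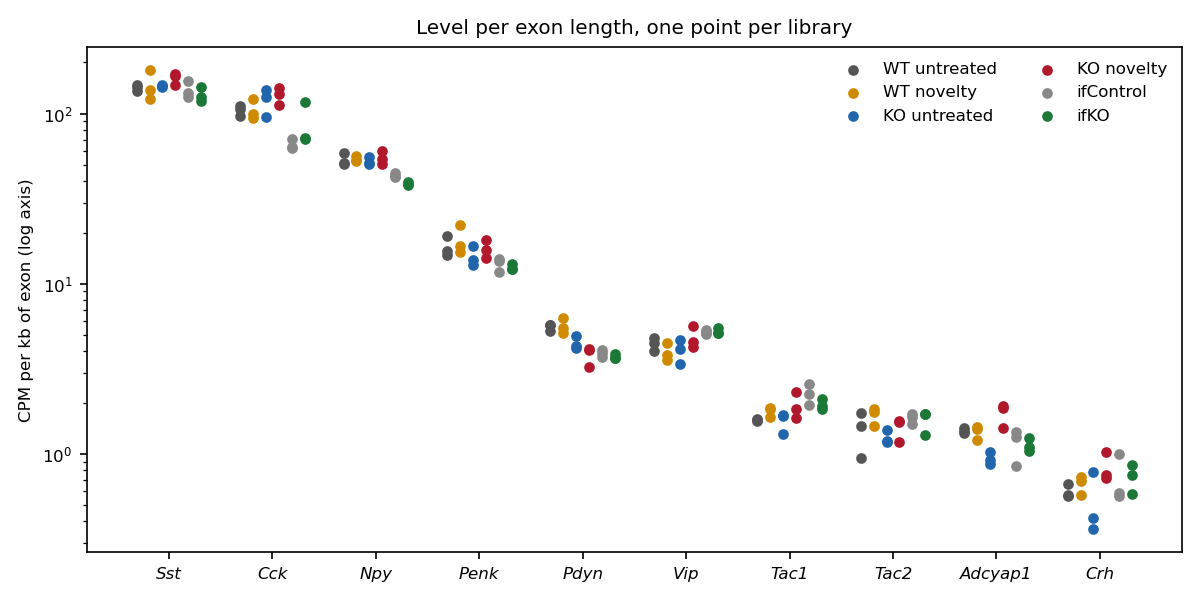
CPM per kb of exon on a log axis, with 1 point per library and the genes in the order of untreated WT. Sst, Cck and Npy lie highest in every group and Crh lowest or level with Adcyap1, and the points of Pdyn fall below those of Vip in KO novelty and in the inducible line.

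Taken as a list, 9 of 10 members had a positive novelty difference in KO, with a median of 0.17 beside 0.00 over all genes, and 7 of 10 in WT, with a median of 0.03. Between untreated KO and WT 8 of 10 were negative, with a median of -0.13, and after novelty 7 of 10 were positive, with a median of 0.12. These 4 comparisons share libraries in pairs and are given side by side for that reason. Without the 2 novelty libraries that stand apart, several signs changed. Those libraries were named for the members' own high values, so part of these shifts follows from that choice. In WT the novelty difference became negative for Pdyn, Penk, Npy and Sst (-0.067, -0.051, -0.023 and -0.14), and in KO for Npy (-0.011). After novelty the KO difference from WT became negative for Npy and Tac1 (-0.012 and -0.0059) and positive for Penk (0.089). For ifKO against control 7 of 10 were negative, with a median of -0.05, and 0 members passed where 0.645% of 17367 genes did. For the untreated KO effect minus the ifKO effect, 0 members passed where 0.114% of 17508 genes did.

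The other genes of the peptide pathway passed in few comparisons. Of 44 further precursors 20 were tested in the KO line, and 1 passed in the averaged genotype comparison: Pomc, the precursor of endorphin and melanocortins, rose by 1.03 ± 0.21 (adjusted p = 0.0136). It had 0.555, 0.489 and 0.420 CPM in untreated WT against 1.09, 0.971 and 1.39 CPM in untreated KO. After novelty it had 0.80, 0.42 and 0.52 CPM in WT and 0.81, 1.23 and 1.05 CPM in KO. No further precursor passed between genotypes in either condition alone, and these levels are as low as those of Crh. Of 9 processing enzymes 1 rose with novelty over both genotypes: Pcsk1, the prohormone convertase of the regulated secretory pathway, by 0.55 ± 0.10 (adjusted p = 0.0185). Its untreated libraries had 15.8 to 17.8 CPM, and its novelty libraries had 17.8, 24.5 and 26.4 CPM in WT and 23.4, 33.6 and 25.6 CPM in KO. WT novelty library 1 alone remained within the range of untreated libraries. The RefSeq window of Pcsk1 holds a full CRE at -78 and another core at -50; the full site is shown for comparison with that of Sst.
Pcsk1, chr13:75089769-75089796, plus strand: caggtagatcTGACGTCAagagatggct
Of 9 peptide-degrading enzymes 1 passed after novelty: Dpp4, a dipeptidyl peptidase, was higher in KO by 1.19 ± 0.22 (adjusted p = 0.0128), with 0.727, 0.937 and 0.616 CPM in WT and 1.71, 1.84 and 1.76 CPM in KO. Of 12 granins and vesicle proteins none passed in any comparison; all 12 had a positive novelty difference in KO, with a median of 0.08, and 6 of 12 in WT. Of 22 genes for receptors and the binding protein Crhbp, 20 were tested in the KO line, and Sstr3 passed there as given above. None of the 20 passed in a novelty comparison.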

How the data were processed

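The 24 sample records stand for 18 libraries, because both reads of a pair have their own record in the inducible line. The authors deposited raw counts per Ensembl gene. The submitters' processing notes name STAR 2.5.0c, SAMtools 1.3, HTSeq 0.6.1, DESeq2 and GRCm38. HTSeq ran with a strand setting and an annotation release not given in the sources used here. Per the labels' protocols libraries were stranded, with 50 nt single reads (KO line) or 75 nt paired reads (inducible line); their extraction text speaks of cultures although the tissue is hippocampus. Symbols and positions for 46574 of 47069 gene IDs come from GENCODE M21. Reads in no feature (14.7 to 17.2%) and ambiguous reads (0.765 to 1.06%) were left out of library sizes.

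The fits used edgeR 4.0.16 in R 4.3.3: TMM scaling, filterByExpr (minimum count 10, minimum total 15), quasi-likelihood tests with a prior count of 0.125, and Benjamini-Hochberg adjustment over all tested genes at a threshold of 0.05. The KO line (12 libraries) and the inducible line (6) were fitted apart, and all 18 together for the difference of effects. SE was the size of the log2 difference divided by the square root of the quasi-likelihood F statistic of the same fit. The 95% intervals were built from that SE. Replicates are pools of mice, so the tests set each difference against the spread between pools and not between single mice. That spread was estimated over all libraries of a fit and moderated across genes. Alternatives were DESeq2 1.42.0, RLE factors, no and a stricter filter (1 CPM in 3 libraries), only the groups compared, the replicate number as a block, and each library left out in turn. The 2 novelty libraries that stand apart, named from the members' own values, were also left out together. Offsets for GC content and transcript length were chosen after seeing the data. The tests were checked on simulated counts.

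The members, the comparisons and the gene lists were chosen with earlier results of these data known. All 10 members were named; from each further list, up to 3 genes per direction past the threshold in a comparison that a member is described in, by smallest adjusted p. Genes most like Adcyap1 or Pdyn were the 5 with the highest Pearson's r of log2 CPM over 12 libraries, among genes with a mean of 1 CPM or more.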

Additional observations from a re-analysis of the deposited data

How the results depend on the processing

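Each member's log2 difference was recomputed under every alternative that could be run for its comparison; Crh failed the stricter filter within either line and has no value there. No called difference changed sign, and those that did were at most 0.20 in size. The Pdyn call over both conditions held throughout. Under DESeq2 the sign changed to -0.00086 for Npy in KO against WT over both conditions, with RLE factors to -0.00051 for Npy in KO against WT over both conditions, without the filter on low counts to 0.0028 for Cck in novelty within WT, -0.0041 for Npy in KO against WT over both conditions and -0.0023 for Penk in the difference of novelty effects, and with the later offsets for GC content and length to 0.031 for Adcyap1 and 0.0074 for Cck in novelty within WT, 0.0060 for Npy in KO against WT untreated, -0.0037 for Tac1 in KO against WT over both conditions and -0.048 for Penk in the difference of novelty effects. With both novelty libraries that stand apart left out it changed to -0.067 for Pdyn, -0.051 for Penk, -0.023 for Npy and -0.14 for Sst in novelty within WT, -0.011 for Npy in novelty within KO, -0.017 for Npy, -0.0069 for Sst, -0.053 for Cck and -0.013 for Vip in novelty over both genotypes, 0.089 for Penk, -0.012 for Npy and -0.0059 for Tac1 in KO against WT after novelty and -0.018 for Npy and -0.012 for Tac1 in KO against WT over both conditions. The number of members called fell to 0 for novelty over both genotypes with RLE factors, with the replicate block and without those libraries, to 0 for novelty in KO with the replicate block and when only the groups compared were fitted, and to 0 for KO against WT after novelty in the latter fit; it became 2 there without those libraries (Sst joined, in a fit that called 705 of 16556 genes against 219 of 16392) and 1 for ifKO against control without the filter (Cck, in a fit that called 398 genes). Replicate numbers did not pair the libraries: 2 of 21 same-number correlations exceeded 0.1 (range -0.25 to 0.30), and in 5 of these 21 the library correlated better with its own number than with the others of that group. With the replicate block Adcyap1 had an adjusted p of 0.0618 for novelty in KO and 0.0808 over both genotypes, and no other call changed.

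With 1 library left out at a time, log2 differences that changed sign and numbers of members called that changed had these ranges. For novelty in WT they were -0.088 to 0.051 for Adcyap1, -0.066 to 0.064 for Pdyn, -0.048 to 0.24 for Penk, -0.033 to 0.081 for Npy, -0.14 to 0.16 for Sst and -0.12 to 0.062 for Cck. For novelty in KO they were -0.0088 to 0.10 for Npy, -0.048 to 0.21 for Cck and 0 to 1 for the number of members called. For novelty over both genotypes they were -0.0040 to 0.064 for Npy, -0.028 to 0.10 for Cck, -0.027 to 0.085 for Vip and 0 to 1 for the number of members called. For KO against WT untreated they were -0.073 to 0.052 for Npy, -0.095 to 0.084 for Tac1, -0.35 to 0.055 for Tac2 and -0.64 to 0.065 for Crh. For KO against WT after novelty they were -0.29 to 0.0079 for Penk, -0.037 to 0.075 for Npy, -0.037 to 0.21 for Tac1 and 0 to 1 for the number of members called. For KO against WT over both conditions they were -0.032 to 0.034 for Npy, -0.029 to 0.094 for Tac1 and -0.18 to 0.18 for Crh. For the difference of novelty effects they were -0.11 to 0.19 for Penk, -0.035 to 0.10 for Npy, -0.024 to 0.28 for Sst, -0.040 to 0.22 for Cck, -0.016 to 0.22 for Tac1 and -0.31 to 0.10 for Tac2. For ifKO against control they were -0.21 to 0.088 for Adcyap1, -0.024 to 0.026 for Vip, -0.11 to 0.084 for Tac2 and -0.13 to 0.33 for Crh. For the KO effect minus the ifKO effect they were -0.24 to 0.0031 for Penk, -0.33 to 0.071 for Cck, -0.31 to 0.085 for Tac2 and -0.67 to 0.056 for Crh. The cause of these changes was not tested. Depth limits Crh (12 to 49 counts per library) and Tac2 (31 to 102).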

Other observations

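Over the 12 libraries of the KO line, log2 CPM of Crh correlated with that of Tac1 (Pearson's r = 0.75) and of Adcyap1 (r = 0.73). The next highest pairs were Sst with Cck (r = 0.66), Crh with Npy (r = 0.65) and Tac1 with Vip (r = 0.63). Pdyn had no r above 0.37 with another member, and its lowest was -0.40, with Cck. These values describe libraries that share groups, depth and the 2 novelty libraries that stand apart. In the inducible line no member shared its highest library with the majority of the others: the highest library was control 2 for 3 members, control 1, control 3 and ifKO 1 for 2 each, and ifKO 3 for 1.

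Within groups Crh varied most, with a coefficient of variation up to 43.6%, followed by Cck (30.5%) and Tac2 (29.3%). Pdyn stayed at 3.2 to 13.2% and Adcyap1 at 3.9 to 22.8%. Of the interneuron markers that are no members, Pvalb, a calcium-binding protein of fast-spiking cells, fell in KO over both conditions by 0.23 on the log2 scale (SE 0.06, adjusted p = 0.0450), and Lamp5, a marker of neurogliaform cells, by 0.30 (SE 0.07, adjusted p = 0.0234). In the same comparison 9 of 14 interneuron markers were negative, with a median of -0.03, and neither Sst, Npy nor Vip passed. Of 10 CA2 and CA3 markers 1 passed there, where 2.81% of all genes did: Map3k15, a kinase, rose by 0.98 ± 0.12 (adjusted p = 0.000208). The median of that list in this comparison was 0.06. Of 8 striatum markers tested 1 passed there, Ppp1r1b, which encodes DARPP-32 (0.31 ± 0.07, adjusted p = 0.0180), and 1 in ifKO against control, Gng7, a G protein subunit (0.19 ± 0.03, adjusted p = 0.0140). None of the 7 CA1 markers passed in any comparison, nor did any choroid plexus, thalamus or habenula marker.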
